A study of Mus musculus with 15 samples.

Results

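Ribosome biogenesis factors are the proteins that transcribe, cut, modify and fold ribosomal RNA and join it to ribosomal proteins in the nucleolus. The group described here was a fixed list of 42 genes, taken by exact gene symbol from the annotation of the array. All 42 were measured, among 18193 genes in all, and each was represented by the brightest of its probe sets (the short probes that read 1 transcript together). Gene expression was measured on 15 Affymetrix mouse arrays of acute myeloid leukemia cells from the spleens of SCID/Beige mice, hosts that lack most lymphocytes, which had received the leukemia by tail vein. Every group carried the genotype NRASG12V/Mll-AF9, that is, the Mll-AF9 fusion gene with an oncogenic NRAS transgene that doxycycline shuts off, and the mice were aged for 20 days to over 100000 white blood cells per microlitre. The RAS-ON group held 5 arrays of vehicle-treated leukemia at 0 h. The RAS-OFF groups held 2 arrays each at 48, 60, 72, 84 and 96 h after doxycycline, given by injection and in the drinking water. The promoter that drives the transgene, the age and sex of the mice, and whether each array came from its own mouse are unstated in the labels. Levels are log2 intensities, on which a difference of 1 is a doubling, and the comparison asks how the factors differ once NRASG12V is turned off.

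Ribosome production begins with RNA polymerase I, which transcribes one long precursor RNA from the ribosomal DNA repeats. Small nucleolar ribonucleoproteins (snoRNPs) of the box C/D and box H/ACA kinds guide its methylation and pseudouridylation, and separate sets of assembly factors build the small and the large subunit around it. Growth signals through RAS and ERK raise this output in many cells, and the transcription factor MYC is known to activate many of the genes. Leukemia blasts, which divide and make protein at a high rate, usually have prominent nucleoli.

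Some properties of the arrays bear on the values below. Nras itself fell by 0.31 ± 0.09 (SE) on the log2 scale (limma, adjusted p = 0.00725), but whether this probe set also detects the transgene is unknown. The RAS-ON arrays fell into set A (replicates 1 to 3) and set B (replicates 4 and 5): log2 differences had an SD of 0.166 to 0.219 for array pairs inside set A, 0.169 for the pair in set B and 0.236 to 0.302 for pairs across. The Nras call was lost with set A as the only control (adjusted p = 0.079) and with the replicate number as a block (0.185). Replicate 1 at 96 h had a log2 difference between the 3-prime and 5-prime Gapdh control probe sets of 1.22, a sign of RNA integrity that lay between 0.10 and 0.35 on the other 14 arrays. Of 11 measured erythroid marker genes 11 rose, with a summed intensity of 32804 to 39904 in RAS-ON and 82119 to 103967 in RAS-OFF arrays. Of 7 promyelocyte granule and marker genes 7 fell, with a summed intensity of 55288 to 67659 in RAS-ON and 18811 to 27260 in RAS-OFF arrays. Macrophage, neutrophil, lymphocyte and stroma lists had 9 of 14, 6 of 9, 5 of 9 and 8 of 10 genes higher and 3, 0, 2 and 1 lower. Over all genes 20.1% were called higher and 28.7% lower. In bulk RNA fewer cells of a type and less RNA per cell cannot be told apart, and the part of these shifts in the results below was not tested.

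Most of the factors were lower after RAS-OFF. In the mean of the 5 RAS-OFF times against RAS-ON, 26 of the 42 fell and 2 rose, while 14 missed the threshold (limma, Benjamini-Hochberg adjusted p below 0.05 over all 18193 genes). Those 26 are 61.9% of the list, where 28.7% of all genes fell. The 2 that rose are 4.76% of the list, where 20.1% of all genes rose. The median log2 change was -0.31 over the 42 genes and -0.04 over all genes. The falls were moderate: on the brightest probe sets the largest, of Pes1, left 60.7% of the RAS-ON level. Sizes and their order depended on the probe set, and with the probe sets of each gene averaged Polr1e (-0.77) and Rrp1b (-0.65) fell more than Pes1 (-0.42). All 10 RAS-OFF arrays lay below all 5 RAS-ON arrays for 16 of the 42 genes (38.1%), a separation that 12% of all genes showed, and above them for 1 gene (2.38%, against 9.36% of all genes). With control set A alone 27 of the 42 fell, and with set B alone 18. The share of all genes called is not given for these counts or for those with arrays left out. They show only how the calls depend on the arrays. An earlier analysis of these data set replicate 1 at 48, 84 and 96 h apart, and without those 3 outlying arrays 29 fell.

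**Figure D1:**
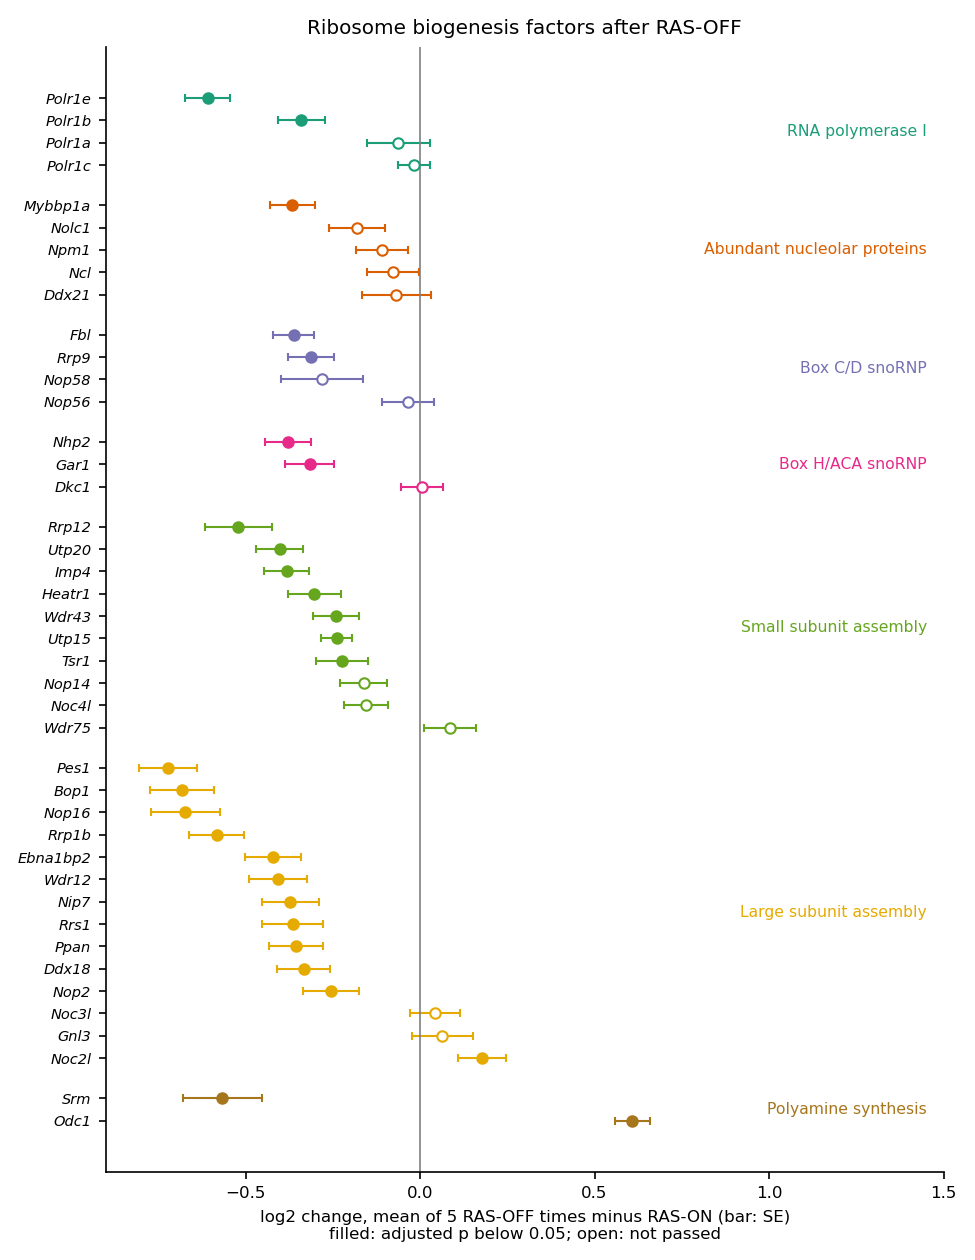
Log2 change of each of the 42 genes in RAS-OFF (mean of 5 times, 10 arrays) minus RAS-ON (5 arrays), grouped by role, with bars for the standard error of the fit. Filled points passed an adjusted p below 0.05: 26 lie to the left of 0 and 2, Odc1 and Noc2l, to the right.

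The distribution of changes as a whole lay to the left of that of all genes. Of the 42 genes 36 had a negative log2 change and 6 a positive one, whether or not they passed. A second list of 120 measured genes of the same pathway, from 133 symbols listed, was described beside the first: 80 of the 120 fell (66.7%), 2 rose (1.67%) and 38 did not pass, with a median of -0.27. Among other RNA polymerase I subunits and factors 7 of 11 fell, among other small subunit factors 30 of 44, among other large subunit factors 31 of 47, and among other snoRNP and RNA exosome factors 12 of 18.

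**Figure D2:**
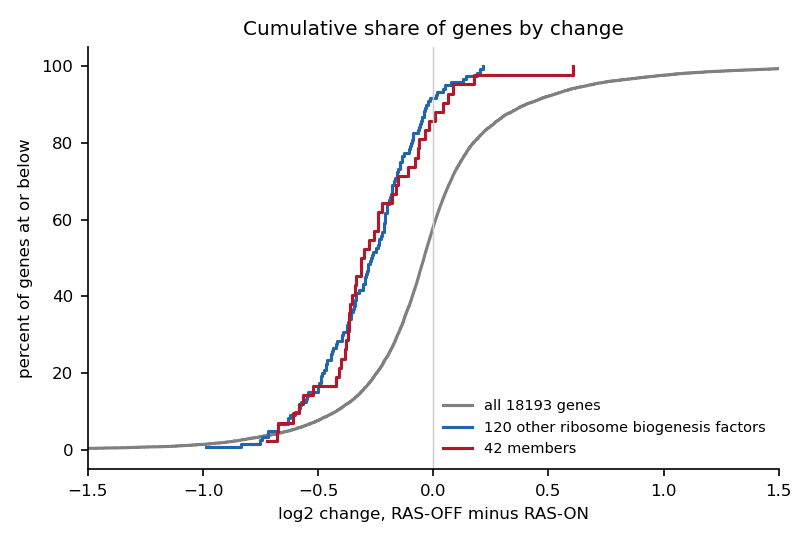
Cumulative percent of genes (vertical axis) at or below each log2 change of RAS-OFF minus RAS-ON (horizontal axis, cut at 1.5 on each side), for the 42 genes, the 120 other factors and all 18193 genes. Both pathway curves lie left of the curve of all genes, with medians of -0.31 and -0.27 against -0.04.

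Of the large subunit factors 11 of 14 fell and 1 rose, with a median of -0.37. Pes1, Bop1 and Wdr12 encode the 3 proteins of the PeBoW complex, which is needed to process the precursor of the large subunit RNAs, and all of them fell. Pes1 had log2 intensities of 10.84, 10.81, 10.71, 10.88 and 11.06 in RAS-ON arrays 1 to 5. It stood at 10.46 and 10.19 at 48 h, 10.09 and 10.30 at 60 h, 10.22 and 10.03 at 72 h, 10.14 and 9.81 at 84 h, and 9.91 and 10.25 at 96 h. The highest RAS-OFF array thus lay below the lowest RAS-ON array. The mean went from 10.86 ± 0.13 (SD, n = 5) to 10.14 ± 0.19 (SD, n = 10), so Pes1 fell by 0.72 ± 0.08 (SE; limma adjusted p = 4.49e-06). Bop1 had 10.21, 10.45, 10.33, 9.92 and 9.91 in RAS-ON arrays and ran from 9.31 to 9.76, with a median of 9.43, in RAS-OFF arrays. Arrays 4 and 5 were the lowest RAS-ON arrays for Bop1, and they were the highest for Wdr12. Bop1 fell by 0.68 ± 0.09 (SE; limma adjusted p = 2.12e-05), and by 0.43 with set B as the only control. Wdr12 had 10.26, 10.16, 10.14, 10.35 and 10.49 in RAS-ON arrays and 9.57 to 10.06 in RAS-OFF arrays, and fell by 0.41 ± 0.08 (SE; adjusted p = 0.000864). The dimmer probe sets moved less: that of Pes1 changed by -0.12 (adjusted p = 0.307), that of Bop1 by -0.18 (0.161), and those of Wdr12 by -0.27 (0.0179) and 0.11 (0.107). Their mean log2 intensities were 7.10 for Pes1, 7.54 for Bop1, and 7.51 and 3.99 for Wdr12, where array medians were 7.23 to 7.29. With probe sets averaged Pes1 fell by 0.42, Bop1 by 0.43 and Wdr12 by 0.19, and each was still called (adjusted p = 3.72e-05, 0.000728 and 0.00177).

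Nop16, a nucleolar factor of large subunit assembly, stood at 10.17 to 10.46 in RAS-ON arrays and at 9.19 to 9.84 in RAS-OFF arrays, without overlap, and fell by 0.67 ± 0.10 (SE; adjusted p = 4.8e-05). Its 2 lowest arrays were replicate 2 at 84 h (9.19) and replicate 1 at 96 h (9.21). A dimmer Nop16 probe set fell by 0.18 (adjusted p = 0.0338), and the mean of both fell by 0.43. Rrp1b, a nucleolar protein that also binds a protein phosphatase, fell by 0.58 ± 0.08 (SE), and Ebna1bp2, a factor of early large subunit particles, by 0.42 ± 0.08 (SE). Both were lower on 10 of 10 RAS-OFF arrays than on any RAS-ON array. With probe sets averaged Rrp1b fell by 0.65 and Ebna1bp2 by 0.23. Nip7, Rrs1, Ppan, Ddx18 (an RNA helicase) and Nop2 (a methyltransferase of the large subunit RNA) fell by 0.37, 0.36, 0.36, 0.33 and 0.26. Of these calls, that of Nip7 (adjusted p = 0.0697) and that of Ppan (0.087) were lost with the replicate number as a block. Those of Rrs1 (0.0795), Ddx18 (0.111) and Nop2 (0.761) were lost with set B as the only control. That of Nop2 was lost as well without RAS-ON replicate 1 (0.0537), without RAS-ON replicate 2 (0.0548) and without the 3 outlying RAS-OFF arrays (0.0523). Gnl3, the nucleolar GTPase also called nucleostemin, had a change of 0.06 ± 0.09 (SE; adjusted p = 0.574), and Noc3l one of 0.04 ± 0.07 (SE; adjusted p = 0.652).

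Of 10 small subunit factors 7 fell and none rose, with a median of -0.24. These proteins form the large early particle around the precursor RNA or, as Tsr1 does, act later in the cytoplasm. Rrp12, needed for export of the subunits, had 8.73, 8.83, 8.57, 8.53 and 8.92 in RAS-ON arrays and ran from 7.82 to 8.52, with a median of 8.22, in RAS-OFF arrays. The gap between the groups was narrow, and the fall was 0.52 ± 0.10 (SE; limma adjusted p = 0.000399). Utp20 fell by 0.40 and Imp4 by 0.38, each below all RAS-ON arrays on 10 of 10 RAS-OFF arrays. Utp15 fell by 0.24 ± 0.04 (SE), a small change that also separated the groups, with 9.44 to 9.53 in RAS-ON and 9.08 to 9.34 in RAS-OFF arrays. Heatr1, which also promotes RNA polymerase I transcription, fell by 0.30 (not called with set B alone, adjusted p = 0.18), Wdr43 by 0.24 (lost with the replicate block, adjusted p = 0.138) and Tsr1 by 0.22. The Tsr1 call was lost without RAS-ON replicate 3 (adjusted p = 0.0658), without RAS-ON replicate 5 (0.0517), with set B alone (0.155) and with the replicate block (0.211). Nop14 and Noc4l, which are partners in the small subunit particle, missed the threshold at -0.16 and -0.16 (adjusted p = 0.0586 and 0.0576), and Wdr75 had a change of 0.09 (adjusted p = 0.357). With probe sets averaged Heatr1 fell by 0.16 (adjusted p = 0.0468) and Wdr43 by 0.39 (adjusted p = 3.17e-05).

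Of the 4 RNA polymerase I subunits 2 fell and 2 did not pass. Polr1e, which helps the enzyme to start, had 8.72, 8.69, 8.47, 8.59 and 8.70 in RAS-ON arrays. It stood at 8.06 and 8.17 at 48 h, 8.03 and 8.23 at 60 h, 8.09 and 7.93 at 72 h, 7.92 and 7.67 at 84 h, and 8.01 and 8.14 at 96 h. No RAS-OFF array reached the lowest RAS-ON array, and the fall was 0.61 ± 0.06 (SE; limma adjusted p = 1.68e-06). Its dimmer probe set fell by 0.93 ± 0.09 (SE), and the mean of both by 0.77. Polr1b, one of the catalytic subunits, fell by 0.34 ± 0.07 (SE). Polr1c, a subunit shared with RNA polymerase III, had a change of -0.02 ± 0.05 (SE), and Polr1a, the largest subunit, one of -0.06 ± 0.09 (SE), with adjusted p values of 0.785 and 0.603. Among the other genes of polymerase I, Tcof1, which encodes the nucleolar protein treacle, fell by 0.99 ± 0.08 (SE), from 9.04 ± 0.17 (SD, n = 5) to 8.05 ± 0.15 (SD, n = 10). The subunit gene Znrd1 fell by 0.84 ± 0.05 and Taf1b, a part of the promoter factor, by 0.72 ± 0.13. Ubtf, which binds the ribosomal DNA itself, had a change of 0.05 ± 0.06 (SE; adjusted p = 0.553).

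The snoRNP proteins split between genes that fell and genes that did not pass. Of the box C/D proteins, Fbl, the methyltransferase fibrillarin, had 12.55, 12.54, 12.50, 12.60 and 12.73 in RAS-ON arrays and ran from 12.05 to 12.39, with a median of 12.19, in RAS-OFF arrays. It fell by 0.36 ± 0.06 (SE; limma adjusted p = 0.000129), without overlap. Rrp9 fell by 0.31 ± 0.07 (SE), not called with set B alone (adjusted p = 0.0616). Nop56 and Nop58, the core proteins that hold fibrillarin on its guide RNAs, had changes of -0.04 ± 0.07 (SE) and -0.28 ± 0.12 (SE) and did not pass (adjusted p = 0.727 and 0.0614). Nop58 was spread widely, from 10.33 on replicate 1 at 96 h to 11.31 on replicate 2 of the same time. Of the box H/ACA proteins, Nhp2 fell by 0.38 ± 0.07 (SE), without overlap of the groups, and Gar1 by 0.32 ± 0.07 (SE), not called with set B alone (adjusted p = 0.108). Dkc1, the pseudouridine synthase of the same particle, had a change of 0.01 ± 0.06 (SE; adjusted p = 0.952). Its 5 RAS-ON arrays lay between 11.59 and 11.62, and its RAS-OFF arrays scattered to both sides, from 11.45 to 11.86.

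Of the 5 abundant nucleolar proteins 1 fell. Mybbp1a, a nucleolar binding partner of MYB and p53, fell by 0.37 ± 0.07 (SE; limma adjusted p = 0.000286), from 11.32 to 11.45 in RAS-ON arrays to 10.85 to 11.25 in RAS-OFF arrays, and by 0.56 with its probe sets averaged. Ncl, which encodes nucleolin, had 13.03, 12.99, 13.13, 13.20 and 13.25 in RAS-ON arrays and ran from 12.83 to 13.27, with a median of 13.04, in RAS-OFF arrays. The groups overlapped, with 3 RAS-OFF arrays below all RAS-ON arrays and 1 above, and the change was -0.08 ± 0.07 (SE; adjusted p = 0.417). Npm1, nucleophosmin, had 13.33, 13.39, 13.33, 13.04 and 13.10 in RAS-ON arrays and 12.95 to 13.28 in RAS-OFF arrays, a change of -0.11 ± 0.07 (SE; adjusted p = 0.247). Its RAS-ON arrays split into sets A and B: the change was -0.22 (adjusted p = 0.0232) with set A alone and 0.062 (adjusted p = 0.62) with set B alone. Nolc1, which shuttles snoRNPs, and the RNA helicase gene Ddx21 had changes of -0.18 ± 0.08 (SE) and -0.07 ± 0.10 (SE), with adjusted p values of 0.0728 and 0.597.

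**Figure D3:**
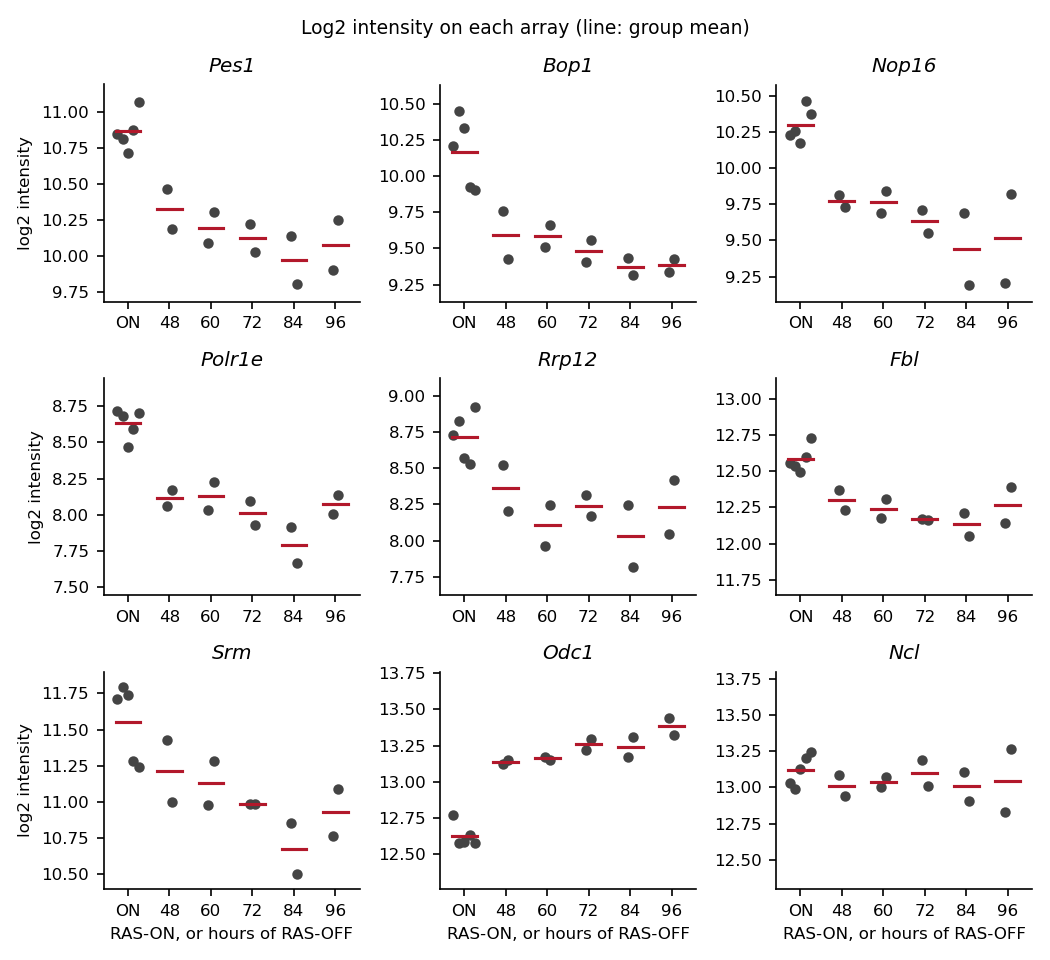
Log2 intensity (vertical axes, each spanning 1.5 units) of 9 genes on each of the 15 arrays, by group; points are arrays and lines are group means. Pes1, Bop1, Nop16, Polr1e, Rrp12 and Fbl lie lower on every RAS-OFF array than on any RAS-ON array, Odc1 lies higher on every one, and Srm and Ncl overlap.

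The pair of polyamine enzymes on the list moved in opposite directions. Polyamines are small cations that growing cells need, and both genes are known MYC targets. Odc1, ornithine decarboxylase, makes the first polyamine, putrescine. It had 12.77, 12.58, 12.59, 12.63 and 12.57 in RAS-ON arrays, then 13.12 and 13.15 at 48 h, 13.17 and 13.15 at 60 h, 13.22 and 13.30 at 72 h, 13.17 and 13.31 at 84 h, and 13.44 and 13.33 at 96 h. Every RAS-OFF array lay above every RAS-ON array. The rise was 0.61 ± 0.05 (SE; limma adjusted p = 1.37e-07), or 1.52-fold, and it was the only one of the 42 genes with that separation upward. Its other probe sets, of which there were 2, rose as well, by 0.42 ± 0.07 and 0.75 ± 0.06 (SE). Srm, spermidine synthase, acts on putrescine. It had 11.71, 11.79, 11.74, 11.28 and 11.24 in RAS-ON arrays and ran from 10.50 to 11.43, with a median of 10.98, in RAS-OFF arrays, 8 of which lay below all RAS-ON arrays. The fall was 0.57 ± 0.11 (SE; adjusted p = 0.000754), and with set B as the only control it was 0.27 with an adjusted p of 0.0978.

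The count of genes called lower was largest at 84 h. At 48 h 13 of the 42 genes were called lower and 1 higher (13.7% and 13.7% of all genes), and at 60 h 13 and 1 (14.2% and 11.5%). At 72 h the counts were 21 and 1 (18.3% and 13.4%), at 84 h 26 and 2 (21.8% and 15%), and at 96 h 20 and 2 (20.9% and 16.7%). These 5 comparisons share the RAS-ON arrays, and each has only 2 arrays of its own. The median change of the 42 genes was -0.24, -0.26, -0.32, -0.39 and -0.26 in the same order. Of the 42 genes 34 had a higher mean at 96 h than at 84 h, a difference that was not tested. Wdr43, for example, changed by -0.38 at 84 h and -0.02 at 96 h, Tsr1 by -0.28 and 0.01, and Rrs1 by -0.56 and -0.21. Bop1 kept its level, with -0.79 and -0.78. All these values are from the brightest probe sets. The dimmer set of Wdr43 had a linear slope over the 5 times of -0.06 per 12 h, that of Tsr1 -0.03 and that of Rrs1 -0.06. The brightest sets had 0.04, 0.06 and -0.0003 in the same order, and none of these slopes was called.

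At 84 and 96 h the replicates lay far apart. Measured as the median difference of the 42 genes from their RAS-ON means, the RAS-ON arrays stood at -0.08 to 0.03 and the RAS-OFF arrays at -0.50 to -0.13. The pair at 84 h had medians of -0.28 and -0.50, and that at 96 h had -0.39 and -0.13. Thus the lowest and the highest RAS-OFF arrays belonged to adjacent times, and both were replicate 2. Replicate 1 at 96 h, the array with the high Gapdh difference, lay between them. Without it 5 of the 42 genes were called lower at 96 h. Without replicate 2 at 84 h 10 were called lower at 84 h, without replicate 1 at 72 h 10 and without replicate 2 at 72 h 7 at that time, without replicate 1 at 60 h 2 at 60 h, and at 48 h 7 without replicate 1 and 2 without replicate 2.

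**Figure D4:**
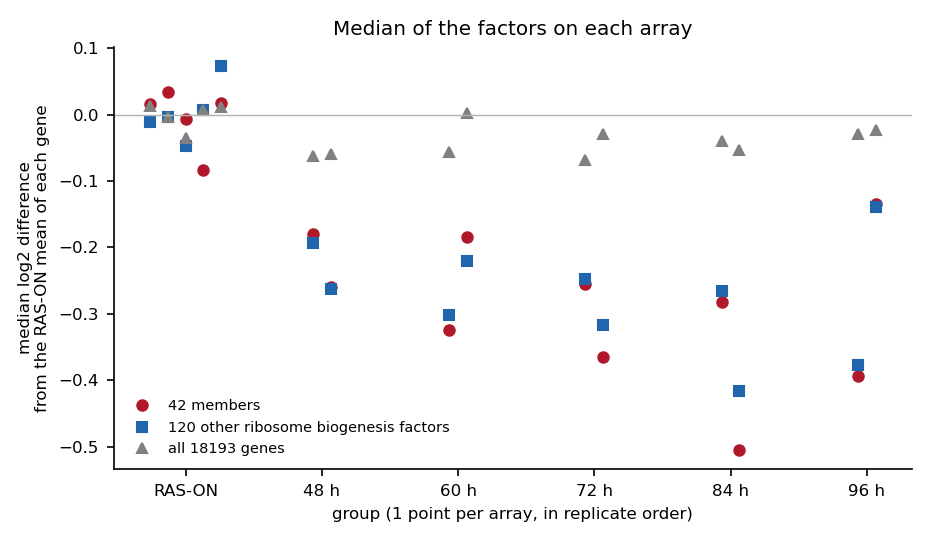
Median log2 difference from the RAS-ON mean of each gene (vertical axis) on each array, by group, for the 42 genes, the 120 other factors and all 18193 genes. The RAS-OFF points of the 42 genes lie between -0.50 and -0.13, below the RAS-ON points at -0.08 to 0.03, while the median of all genes stays between -0.07 and 0.01.

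A slope over the 5 RAS-OFF times was called for 2 of the 42 genes, 1 downward and 1 upward (8.75% and 5% of all genes). Polr1a fell by 0.15 ± 0.04 (SE) per 12 h (limma adjusted p = 0.0148). It stood at 9.11, 9.28, 9.03, 9.19 and 9.34 in RAS-ON arrays, 9.20 and 9.39 at 48 h, 9.48 and 9.34 at 60 h, 9.14 and 9.18 at 72 h, 9.02 and 9.11 at 84 h, and 8.38 and 9.05 at 96 h. The array at 8.38 was replicate 1 at 96 h, and without it the slope was -0.08 with an adjusted p of 0.112. Without replicate 2 at 48 h it was -0.13 (adjusted p = 0.0756). Noc2l, a factor of the large subunit that is also known as an inhibitor of histone acetylation, rose by 0.11 ± 0.03 (SE) per 12 h (adjusted p = 0.0142). It had 9.76, 9.75, 10.01, 9.56 and 9.61 in RAS-ON arrays, 9.63 and 9.66 at 48 h, 9.84 and 9.83 at 60 h, 9.91 and 9.94 at 72 h, 10.05 and 10.09 at 84 h, and 10.23 and 9.97 at 96 h. Only 3 RAS-OFF arrays lay above all RAS-ON arrays. Without replicate 1 at 96 h the slope was 0.09 (adjusted p = 0.112), and without replicate 1 at 48 h it was 0.11 (adjusted p = 0.0804). Neither slope was called with probe sets averaged, at 0.053 for Noc2l (adjusted p = 0.209) and -0.038 for Polr1a (adjusted p = 0.181). The dimmer Noc2l probe set had a slope of -0.0092 (adjusted p = 0.895).

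The rise of Noc2l in RAS-OFF against RAS-ON, 0.18 ± 0.07 (SE; limma adjusted p = 0.0457), passed narrowly. It was lost without any single one of 13 of the 15 arrays (adjusted p up to 0.134), and the exceptions were RAS-ON replicate 3 and replicate 2 at 96 h. A second Noc2l probe set went the other way, by -0.23 ± 0.08 (SE; adjusted p = 0.0331 among 34945 probe sets tested), and in the mean of both the change was -0.024 (adjusted p = 0.778).

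Probe sets of the same gene did not always give the same call. The 42 genes had 90 probe sets, and 31 genes had more than 1. Of 18 genes that fell and had several, 14 had another probe set that also fell, and 0 had one that rose. Of the 48 probe sets of the list that were not the brightest, 21 fell, 2 rose and 25 did not pass. The share of all probe sets called is not given for these counts. Of the 14 genes that did not pass on their brightest probe set, 3 had another that fell. For Ncl this was a change of -0.28 ± 0.10 (SE; adjusted p = 0.0271), on a dimmer one of its 5 probe sets. For Npm1 it was -0.26 ± 0.10 (SE; adjusted p = 0.0424), and for Ddx21 -0.31 ± 0.09 (SE; adjusted p = 0.0115). The second brightest set of Npm1 had 12.87 to 12.99 in RAS-ON arrays, 12.59 to 12.84 in 9 RAS-OFF arrays and 12.00 in replicate 1 at 96 h. The second brightest set of Ncl likewise stood at 10.17 on that array and at 11.41 to 12.03 on the other 14. For Polr1a the 4 dimmer sets had slopes of -0.08 to 0.03 per 12 h, and none of them passed. Those with mean log2 intensities of 9.01 and 8.07 had slopes of -0.08 and -0.03. The upward slopes, 0.03 each, were on sets at 4.82 and 4.80, where array medians were 7.23 to 7.29. All sets of Polr1a weigh equally in its averages. The probe-set calls here are from limma on the 34945 probe sets with 1 gene name.

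**Figure D5:**
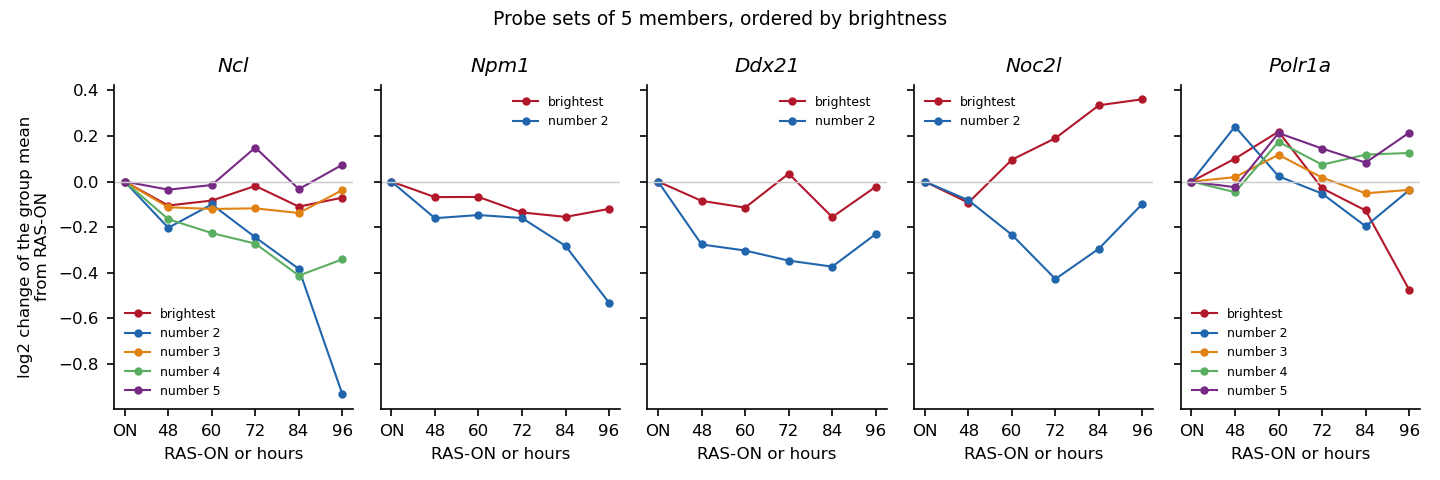
Log2 change of each group mean from RAS-ON (vertical axis) for each probe set of 5 genes, coloured by its rank in brightness. The brightest sets of Ncl, Npm1 and Ddx21 stay near 0, while the dimmer set of Npm1, that of Ddx21 and some of those of Ncl fall. The 2 sets of Noc2l part, and at 96 h the brightest set of Polr1a lies below its other 4.

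Since most of the list was lower, the promoters of its members were read for the letters CACGTG, the E-box that MYC with MAX is known to bind. The motif reads the same on both strands. RefSeq promoter windows of build GRCm38.p6, which run from 250 bases before to 50 bases after a transcript start, were matched by symbol for 36 of the 42 genes (40 windows). The motif was in 7 of the 40 windows (17.5%), each in a different gene, and in 7.15% of all 32851 windows. Counted by gene, it was in 7 of the 36 (19.4%) and in 10.2% of the 14452 measured genes with a window. The motif with its surroundings is shown for these 7 genes, ordered by the size of their fall on the brightest probe sets, with the motif in capitals, 5′ to 3′ on the strand of the gene.
Pes1, chr11:3963967-3963992, plus strand: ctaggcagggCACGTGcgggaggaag
Utp20, chr10:88826765-88826787, minus strand: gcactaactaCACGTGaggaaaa
Imp4, chr1:34439698-34439723, plus strand: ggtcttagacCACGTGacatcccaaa
Mybbp1a, chr11:72441357-72441376, plus strand: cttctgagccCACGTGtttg
Nop2, chr6:125131813-125131838, plus strand: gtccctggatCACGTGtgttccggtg
Wdr43, chr17:71616222-71616247, plus strand: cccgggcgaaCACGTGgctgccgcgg
Tsr1, chr11:74898094-74898119, plus strand: acttggtgcaCACGTGgactgcagaa
The motif began 2 bases after the start base in Pes1, 37 in Utp20, 40 in Mybbp1a, 17 in Wdr43 and 24 in Tsr1. It began 121 bases before the start in Imp4 and 60 before it in Nop2.

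Of the 7 genes with the motif 7 fell, and of the 29 matched genes without it 14 fell (48.3%). The 6 genes with no window are in neither count, and whether they hold the motif is unknown. The calls of Nop2, Wdr43 and Tsr1, which are among the 7, were lost under some alternatives, as were calls of some genes without the motif. Over all measured genes with a window, 34.1% of the 1479 with the motif fell and 28.7% of the 12973 without it. These are counts of letters in a window, with no test. The genes with the largest fall and the largest rise on the brightest probe sets, Pes1 and Odc1, are shown over the same stretch, from 100 bases before the start to 20 bases from it, with the motif in capitals.
Pes1, chr11:3963875-3963994, plus strand: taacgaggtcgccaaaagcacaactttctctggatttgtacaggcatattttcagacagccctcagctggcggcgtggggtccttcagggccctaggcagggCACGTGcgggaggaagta
Odc1, chr12:17544773-17544892, plus strand: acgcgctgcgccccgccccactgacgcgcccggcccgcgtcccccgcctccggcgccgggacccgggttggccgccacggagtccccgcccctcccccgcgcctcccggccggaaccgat
The G and C content of these stretches was 56.7% for Pes1 and 84.2% for Odc1. The Odc1 window held 0 copies of CACGTG, which says only that these letters are not in this window.

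Genes of the MYC network were described beside the list. Myc had 10.49, 10.77, 10.75, 10.07 and 10.70 in RAS-ON arrays, then 10.38 and 10.33 at 48 h, 10.09 and 10.31 at 60 h, 10.16 and 9.94 at 72 h, 9.93 and 9.96 at 84 h, and 10.15 and 10.26 at 96 h. RAS-ON replicate 4 lay among the RAS-OFF arrays, and 3 of 10 RAS-OFF arrays lay below all RAS-ON arrays. The fall of 0.41 ± 0.10 (SE; limma adjusted p = 0.00348) was not called with set B alone (adjusted p = 0.157). Of the MXD proteins, which pair with MAX and repress E-box genes, Mxd1 rose 2.83-fold (adjusted p = 1.55e-09), Mxd3 by 0.52 ± 0.06 (SE, log2) and Mxi1, of the same family, by 0.42 ± 0.06. Mxd1 was higher on 10 of 10 RAS-OFF arrays than on any RAS-ON array, from a mean of 10.04 ± 0.22 (SD, n = 5) to one of 11.54 ± 0.16 (SD, n = 10). Mnt, another repressor of the network, fell by 0.34 ± 0.05, and Mlx by 0.28 ± 0.05. With probe sets averaged the log2 changes were 0.92 for Mxd1, 0.33 for Mxd3 and -0.21 for Mnt. Of the 11 network genes 5 rose, 4 fell and 2 did not pass, with a median of 0.00. Over all genes 20.1% rose and 28.7% fell, so falls are common outside the network too. The erythroid markers that rose and the promyelocyte markers that fell did so on the same arrays.

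Outside the 42 genes, the largest falls of the second list were those of Tcof1 and Znrd1, given above with RNA polymerase I. Further large falls were spread over both subunits and the snoRNP and exosome factors. Ltv1 and Bms1, factors of small subunit assembly, fell by 0.72 ± 0.07 and 0.58 ± 0.09 (SE), and Tbl3 by 0.55 ± 0.10. For the large subunit, Rsl24d1 fell by 0.67 ± 0.07, Rrp15 by 0.63 ± 0.08 and Rpf2 by 0.62 ± 0.09. Exosc1 and Exosc5, subunits of the RNA exosome that trims precursor RNAs, fell by 0.75 ± 0.08 and 0.68 ± 0.07, and Nufip1, a snoRNP assembly factor, by 0.74 ± 0.10. With probe sets averaged the falls were smaller for Bms1 (-0.30), Tbl3 (-0.18), Rpf2 (-0.18) and Exosc1 (-0.27), though each was still called, and with set B alone Tbl3 fell by 0.31. The 2 that rose did so by little: Utp23 by 0.20 ± 0.05 (SE; limma adjusted p = 0.00718) and the helicase gene Ddx24 by 0.19 ± 0.06 (SE; adjusted p = 0.0176). The Utp23 direction turned when its probe sets were averaged (-0.080, adjusted p = 0.34) and its call was lost with the replicate block (adjusted p = 0.134), and that of Ddx24 with set B alone (adjusted p = 0.353).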

How the data were processed

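The deposited table gives an intensity for each probe set on each array. RMA is the tool named in the submitters' processing notes, with settings not given in the sources used here. RMA corrects background, gives the arrays similar distributions and summarises each probe set, so a common shift of most genes is removed. Log2 was taken of the deposited values, which were linear and above 0. Of 45101 probe sets 34945 had 1 gene symbol in the platform annotation, and the brightest stood for each of 18193 genes, with no filter. limma 3.58.1 in R 4.3.3 fitted 1 mean per group with default eBayes and two-sided tests, and p-values were Benjamini-Hochberg adjusted over all genes. RAS-ON was subtracted from the mean of the RAS-OFF times and from each time alone, and a linear slope per 12 h was fitted across those times. P-values measure the spread between these arrays, which may be technical, and their number limits the precision. The code was tested on simulated data.

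The 42 genes, the other lists and the settings were chosen with earlier results of these data known. Named were Ncl, Npm1, Fbl, Polr1a, Odc1 and Srm, the 8 largest called falls and up to 6 rises, up to 4 called slopes in each direction, the largest change of each role, Myc, and up to 3 called genes per direction of each other list. Members outside that rule are given so that each is accounted for, and Ubtf lies outside the rule and was added with results known. Alternatives were no dim genes, the mean of probe sets, centring, trend and robust eBayes, leaving out single arrays, the replicate number as a block, either set of RAS-ON arrays alone, and 3 RAS-OFF arrays left out. In the mean of probe sets each set of a gene weighed the same, however dim. Promoter windows came from RefSeq (GRCm38.p6).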

Additional observations from a re-analysis of the deposited data

Results flagged for a closer look

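In the test of the slope over the 5 times, a linear trend was called for 2 of the 42 genes. A change that turns back between times can escape this test. These were 1 falling and 1 rising slope, where 8.75% and 5% of all genes were called. Both genes are among the 16 named by the rule, which takes in called slopes. Noc2l had a slope of 0.11 per 12 h (limma adjusted p = 0.0142) and Polr1a one of -0.15 per 12 h (adjusted p = 0.0148). Both calls were lost without replicate 1 at 96 h (adjusted p = 0.112 for each). They were lost as well with the probe sets of each gene averaged, at 0.053 for Noc2l (adjusted p = 0.209) and -0.038 for Polr1a (adjusted p = 0.181). No RAS-ON array stood apart from the others by Dixon's test in 37 sets of 5 values, those of the genes named by the rule and the median of the 42 genes. Dixon's test looks for 1 extreme value, so it says little about the split of the RAS-ON arrays into sets A and B.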

How the results depend on the processing

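Of the 26 genes that fell, 15 were called lower under each of the 23 alternatives and 11 lost the call under at least 1. The count of genes lower in RAS-OFF ran from 18 to 30, and that of the 120 other factors from 60 to 87. The count of genes higher was 1 instead of 2 in the mean of probe sets, with centred arrays, with the replicate block, against control set A alone and without the 3 outlying RAS-OFF arrays, and 1 to 2 with single arrays left out. At 72 h it was 2 against control set B alone (1 to 2 with single arrays left out). At 84 h it was 1 in the mean of probe sets, against control set A alone and without those 3 arrays (1 to 2 with single arrays left out). With single arrays left out the count of genes lower ran from 2 to 15 at 48 h, 2 to 16 at 60 h, 7 to 23 at 72 h, 10 to 28 at 84 h and 5 to 22 at 96 h, where it was 5 without those 3 arrays together. Where a time keeps 1 array, the fit lends it the spread of the rest. The count of falling slopes was 0 without those 3 arrays, and 0 to 6 with single arrays left out, with 6 without replicate 2 at 96 h. The count of rising slopes was 2 with trend and robust settings, 0 without those 3 arrays, and 0 to 1 with single arrays left out. The median change was -0.23 against control set B alone. Directions turned for Ncl with the replicate block (0.032), Npm1 against control set B alone (0.062), Noc2l (-0.024) and Utp23 (-0.080) in the mean of probe sets, and Polr1a with probe sets averaged (0.032), without the 3 outlying arrays (0.033) and without replicate 1 at 96 h (0.0053, where single arrays left out gave -0.13 to 0.0053). The Polr1a average weighs all its probe sets equally, dim ones included. What caused these turns was not tested. The replicate numbers did not pair the arrays: of 15 correlations between arrays numbered 1 in different groups, 3 were above 0.1, and they ran from -0.23 to 0.22. With the replicate block 22 of the 42 genes fell and 1 rose. RAS-ON replicates 3 to 5 then have no partner and do not enter the change.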
